A study of Mus musculus with 2 samples.

Results

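Interferon response genes and the genes of MHC class I antigen presentation were followed in mouse cerebral cortex lacking presenilin. The set was a list of gene names chosen by function, with earlier results of these data known, and no measured value entered the rule. It held 37 genes, of which 31 had at least 1 probe set annotated to that gene alone, among 8251 such genes on the array. The other 6 are accounted for below. Cortical total RNA had been hybridised to 2 oligonucleotide arrays. The first carried RNA of mice with a conditional double knockout of presenilin (PS cDKO), and the second RNA of control mice, with an age of 6 months in either group. Presenilins are the catalytic subunits of the γ-secretase complex, and in published mice of this kind they are lost from excitatory neurons of the postnatal forebrain. The alleles, the Cre driver, the control genotype, the sex and the number of animals behind each array were not given in the labels. Because each genotype had 1 array, the spread between animals is unknown and no test was possible.

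Interferons are secreted when a cell senses foreign or misplaced nucleic acid. Type I interferons act through a complex that holds IRF9 and recognises the interferon-stimulated response element (ISRE) of its target genes. Genes induced by interferon-γ often carry the γ-activated site (GAS). The targets include antiviral effectors, large GTPases and the MHC class I machinery, which loads peptides onto a heavy chain paired with β2-microglobulin. In brain, microglia and astrocytes are the usual responders, and neurons hold class I at low levels.

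Intensities are linear array units, with the PS cDKO array multiplied by 1.02 to bring the arrays to a common scale. Values below 232, the 40th percentile of both arrays pooled, were treated as lying at a floor. Where both values of a probe set lay under the floor no ratio was formed, and where 1 value did the ratio is a limit, given as "at least". Ratios are PS cDKO over control. Of the 43 probe sets of the 31 genes, 24 lay above the floor on both arrays, 3 on 1 array and 16 on neither. By gene, 20 were measured on both arrays, 2 gave a bound and 9 had no ratio.

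The promoter windows below show matches to the ISRE and GAS elements described above. They are windows of 5 members whose signal was higher in the PS cDKO and whose window holds a match. Because they were picked on that direction, they cannot show whether matches go with higher signal. The direction of Igtp follows from the filter, and Ifi35, which has a GAS match and was lower, is not shown. Each runs from 250 bases before to 50 bases after an annotated start, from RefSeq on GRCm38.p6, printed along the gene's own strand. Capitals mark matches to the ISRE core, which is GAAA, any 2 bases and GAAA again, or to the GAS core TTCNNNGAA, both searched on either strand. The windows are chr3:142620413-142620712 (plus strand) for Gbp2, chr4:156200769-156201068 (minus strand) for Isg15, chr11:58199306-58199605 (plus strand) for Igtp, chr2:122147437-122147736 (plus strand) for B2m and chr11:53769764-53770063 (plus strand) for Irf1, the one of its 2 annotated windows that holds a match.
Gbp2 promoter: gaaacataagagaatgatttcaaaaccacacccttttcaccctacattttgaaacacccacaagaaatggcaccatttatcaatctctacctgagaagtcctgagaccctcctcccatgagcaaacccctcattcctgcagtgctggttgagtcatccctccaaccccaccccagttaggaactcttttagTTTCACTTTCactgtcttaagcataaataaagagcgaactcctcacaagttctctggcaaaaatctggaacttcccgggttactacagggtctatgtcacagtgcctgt
Isg15 promoter: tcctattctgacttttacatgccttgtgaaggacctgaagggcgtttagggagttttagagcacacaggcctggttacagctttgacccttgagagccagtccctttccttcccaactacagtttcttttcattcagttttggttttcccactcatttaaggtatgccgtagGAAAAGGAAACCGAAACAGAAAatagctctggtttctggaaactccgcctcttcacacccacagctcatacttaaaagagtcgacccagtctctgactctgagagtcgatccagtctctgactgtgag
Igtp promoter: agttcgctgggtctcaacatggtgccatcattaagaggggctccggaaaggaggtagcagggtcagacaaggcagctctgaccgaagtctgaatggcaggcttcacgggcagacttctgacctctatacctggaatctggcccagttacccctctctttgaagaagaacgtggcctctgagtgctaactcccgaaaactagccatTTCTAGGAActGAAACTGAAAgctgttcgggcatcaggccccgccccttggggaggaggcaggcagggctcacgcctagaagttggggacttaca
B2m promoter: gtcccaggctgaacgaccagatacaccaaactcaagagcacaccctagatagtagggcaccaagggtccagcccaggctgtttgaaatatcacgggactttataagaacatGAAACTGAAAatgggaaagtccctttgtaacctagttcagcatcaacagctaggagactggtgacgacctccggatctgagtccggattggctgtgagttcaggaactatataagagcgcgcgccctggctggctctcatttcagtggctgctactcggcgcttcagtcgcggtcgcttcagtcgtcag
Irf1 promoter: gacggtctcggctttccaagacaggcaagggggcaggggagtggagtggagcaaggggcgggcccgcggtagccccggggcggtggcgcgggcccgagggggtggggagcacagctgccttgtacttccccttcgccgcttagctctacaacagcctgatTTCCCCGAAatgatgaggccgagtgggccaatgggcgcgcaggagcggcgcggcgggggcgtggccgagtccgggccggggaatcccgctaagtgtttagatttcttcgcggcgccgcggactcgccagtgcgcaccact
The Gbp2 match lies on the opposite strand, the Isg15 window has 3 overlapping ISRE matches, Igtp has a GAS and an ISRE match side by side, and Irf1 has a GAS match only.

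Across the members measured on both arrays, signals were mostly a little higher in the PS cDKO. Of these 20 genes, 16 were higher in the PS cDKO, against 50.8% of all 5414 genes measured on both arrays. Differences were sorted by size, at 25% or more above the control and at 20% or more below it, which is the same step in either direction. On that rule 3 of the 20 were higher, against 7.5% of all such genes, and 0 were lower, against 8.48%. At 1.5-fold, 0 of the 20 were higher and 0 lower, against 0.887% and 0.757%. Their median log2 ratio was 0.15 and that of all such genes was 0.0057. The lowest of the 20 was Ifi35 at -0.09 and the highest Gbp2 at 0.45. As a yardstick for probe noise on these arrays, the SD of 1 probe set's log2 ratio was 0.21, estimated from pairs of probe sets in 749 genes. That SD holds no variation between animals. With the 2 bounded genes counted at their limits, 17 of 22 members were higher, against 51.9% of all 5885 measured genes. Of the 22, 3 were higher by 25% or more and 1 was lower by 20% or more, against 8.05% and 8.36%.

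**Figure D1:**
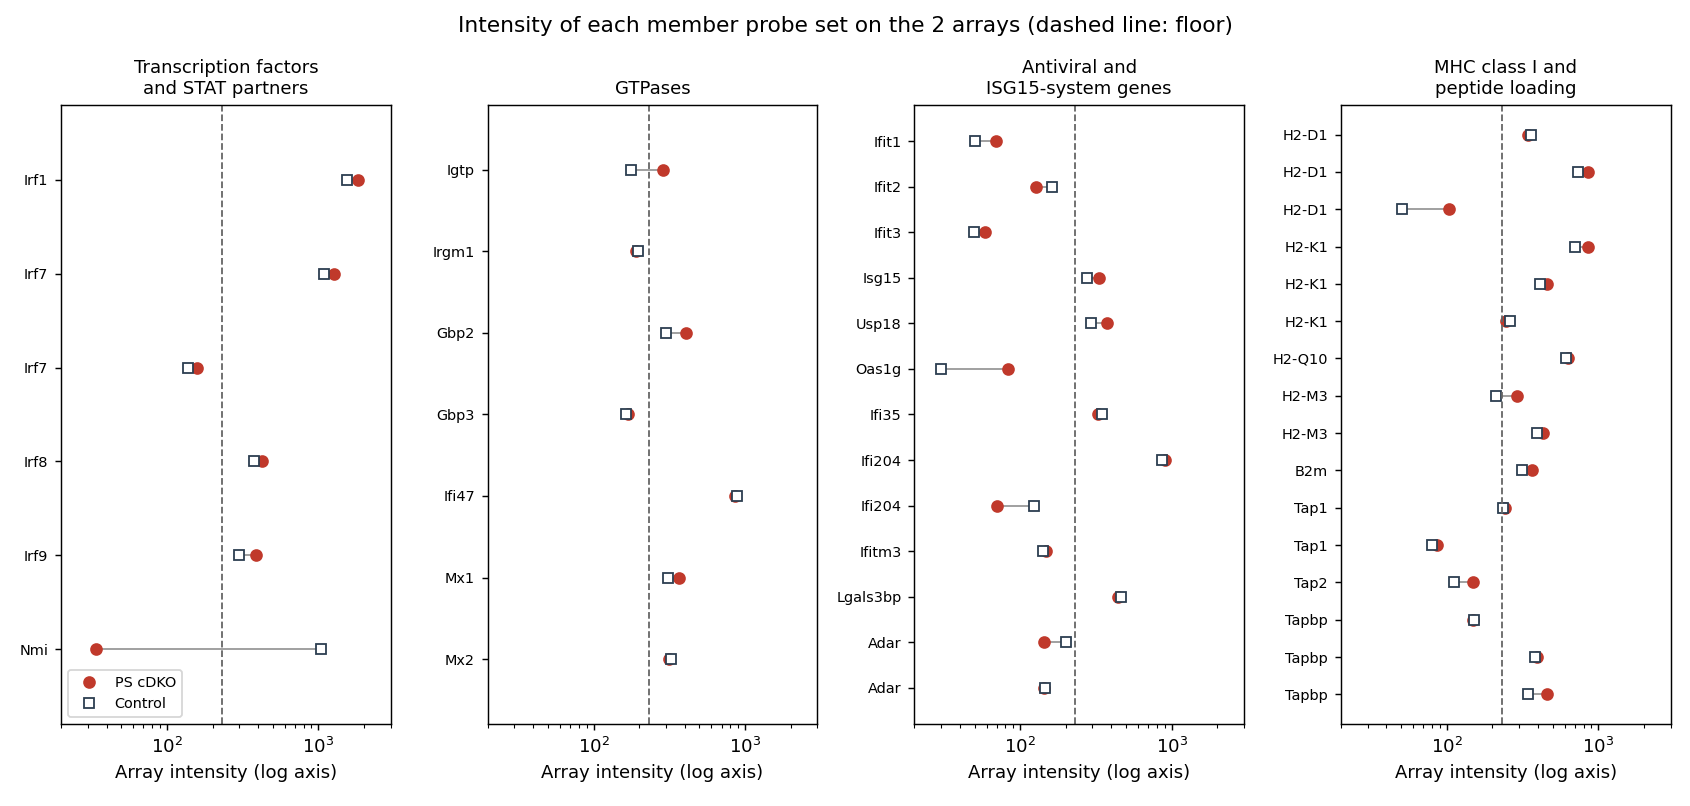
Array intensity (log axis) of every member probe set, by class, with the PS cDKO as filled circles, the control as open squares, and the floor of 232 as a dashed line. Most pairs lie close together, and the Nmi pair, at 33.9 in the PS cDKO and 1039 in the control, lies farthest apart. An Ifi204 probe set with a negative PS cDKO intensity is not drawn.

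The measured transcription factors of the set were higher on the PS cDKO array, with the exception of the STAT partner Nmi. Irf9, the DNA-binding subunit of the type I interferon complex, had an intensity of 387 in the PS cDKO and 301 in the control, a 1.29-fold difference and the largest of the factors. Irf1, an activator induced by interferon-γ that also acts on class I genes, had 1831 in the PS cDKO and 1538 in the control, 1.19-fold higher. Both are single differences between 1 array and another, and 5.95% of all measured genes had a ratio at least as high as that of Irf9.

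Irf7, which drives type I interferon production, had 1262 in the PS cDKO and 1089 in the control, 1.16-fold higher. A second Irf7 probe set lay below the floor, at 157 in the PS cDKO and 138 in the control. Irf8, a factor of microglia and other myeloid cells, had 421 in the PS cDKO and 374 in the control, 1.13-fold higher. The 4 IRF members thus had log2 ratios between 0.17 and 0.36, all with the PS cDKO array on the higher side. Of all genes measured on both arrays, 50.8% were on that side. The ratio of Irf8 was smaller than the SD of 0.21 for 1 probe set, and that of Irf7 was about equal to it. Irf3 and Irf5, IRF genes outside the set, lay below the floor on both arrays. Stat2, the partner of IRF9, had no probe set of its own in the annotation used.

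Nmi, an interferon-inducible protein that binds STAT factors, went the other way, with an intensity of 33.9 in the PS cDKO and 1039 in the control. The PS cDKO value lies below the floor, so the gene was at least 4.48-fold lower, the lowest ratio of all 5885 measured genes. The control intensities of 487 other probe sets lay within 10% of the Nmi value, and on the PS cDKO array those had a median of 994 and a lowest intensity of 567. None of the 487 was below the floor on the PS cDKO array. Of 7810 probe sets with a ratio, 2 were at least 4-fold lower, that of Nmi included. Nmi rests on 1 probe set on 1 array, with no further probe set to set beside it, and a local fault of the array at this probe set could not be checked. It passed the floor through the control array alone, so its direction follows from the filter. Ifi35, whose protein pairs with NMI, had 327 in the PS cDKO and 349 in the control, 1.07-fold lower.

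Among the GTPases, Gbp2, a guanylate-binding protein that attacks the vacuoles of intracellular pathogens, had the highest ratio of the members measured on both arrays. Its intensity was 409 in the PS cDKO and 301 in the control, a 1.36-fold difference that 3.23% of all measured genes matched or exceeded. Gbp3 of the same family was below the floor on both arrays, at 169 in the PS cDKO and 163 in the control. When the floor was set at the 60th percentile the control value of Gbp2 lay below it, and the gene became a bound of at least 1.02-fold.

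Igtp, an immunity-related GTPase of the endoplasmic reticulum, had 287 in the PS cDKO and 176 in the control. The control value was below the floor, so the gene was at least 1.24-fold higher, and 1.63-fold higher with no floor. Of its relatives, Ifi47 had 861 in the PS cDKO and 884 in the control, 1.03-fold lower, and Irgm1 lay below the floor with 191 in the PS cDKO and 195 in the control. Igtp passed the floor through the PS cDKO array alone, so its direction follows from the filter.

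The Mx proteins are dynamin-like GTPases that block viral replication, Mx1 in the nucleus and Mx2 in the cytoplasm of mouse cells. Mx1 had 366 in the PS cDKO and 310 in the control, 1.18-fold higher. Mx2 had 313 in the PS cDKO and 327 in the control, 1.04-fold lower. The 2 genes lie together on chromosome 16 and had log2 ratios of 0.24 and -0.06. Of the 4 GTPases measured on both arrays, Gbp2 and Mx1 were higher and Ifi47 and Mx2 lower.

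**Figure D2:**
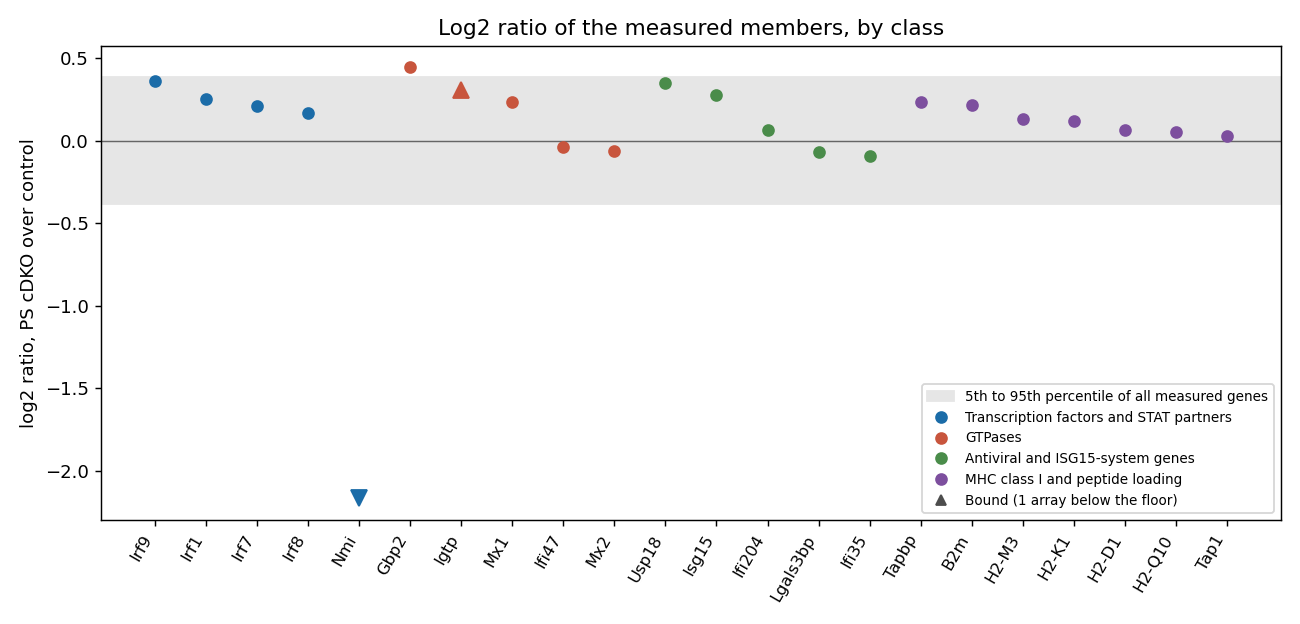
Log2 ratio (PS cDKO over control) of the 22 measured members, ordered within each class, with triangles for bounds and a grey band from the 5th (-0.38) to the 95th (0.39) percentile of all measured genes. Gbp2 at 0.45 and Nmi at -2.17 lie outside the band. All 7 class I and loading genes lie inside it, above 0.

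The antiviral class divided into a pair of ISG15-system genes with higher signal, a group near equality and a group below the floor. Usp18, the protease that removes ISG15 from proteins and dampens interferon receptor signalling, had 373 in the PS cDKO and 292 in the control, 1.28-fold higher. Isg15, the ubiquitin-like modifier itself, had 334 in the PS cDKO and 275 in the control, 1.21-fold higher. Each rests on 1 probe set, and 6.41% and 11.4% of all measured genes had ratios at least as high as those of Usp18 and Isg15.

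Lgals3bp, a secreted galectin-binding glycoprotein, had 440 in the PS cDKO and 461 in the control, 1.05-fold lower. Ifi204, a member of a family of interferon-inducible DNA-binding proteins, had 899 in the PS cDKO and 860 in the control in its brightest probe set, 1.05-fold higher. Its other probe sets were below the floor, at 70.9 and -7.29 in the PS cDKO and at 124 and 7.62 in the control, so the probe sets of Ifi204 do not give a common level. With Ifi35, these genes lay within 0.10 of equality on the log2 scale.

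Several well-known markers of an interferon response lay below the floor, whereas Isg15, Usp18 and Mx1, given above, were measured on both arrays. Ifit1, an RNA-binding inhibitor of viral translation, had 69.4 in the PS cDKO and 50.02 in the control. Its neighbours on chromosome 19 had 128 in the PS cDKO and 161 in the control for Ifit2, and 59.0 in the PS cDKO and 49.5 in the control for Ifit3. All 6 values are below the floor of 232.

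Oas1g, an oligoadenylate synthetase of the RNase L pathway, had 83.0 in the PS cDKO and 29.9 in the control. Ifitm3, which blocks viral entry at endosomes, had 147 in the PS cDKO and 142 in the control. These values, too, are below the floor. Both probe sets of the RNA-editing enzyme Adar were below it, at 143 and 143 in the PS cDKO and at 200 and 146 in the control. Below the floor the values carry no order, and a gene without a ratio is not shown to be equal in the 2 genotypes. Bst2, the tetherin gene, had no probe set of its own.

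All 7 measured genes of MHC class I and peptide loading were higher in the PS cDKO by small amounts, around a median log2 ratio of 0.12 and over a range of 0.03 to 0.24, although Tap1 turned negative with the intensities as deposited, after quantile normalization and after lowess, and H2-K1 without suffixed probe sets. Suffixed probe sets carry a letter such as f, s or g in their identifier and may hybridise to related transcripts. No gene of the 7 was higher by 25% or more. Of all genes measured on both arrays, 50.8% were higher by any amount and 7.5% by 25% or more. B2m, the invariant light chain of every class I molecule, had 365 in the PS cDKO and 314 in the control, 1.16-fold higher. Tapbp (tapasin), which bridges class I to the peptide transporter, was 1.18-fold higher as the mean of 2 probe sets that differed. The suffixed probe set of the pair had 460 in the PS cDKO and 342 in the control, a 1.34-fold difference. The other had 397 in the PS cDKO and 384 in the control, a 1.03-fold difference. A further Tapbp probe set lay below the floor, at 148 in the PS cDKO and 151 in the control. Without suffixed probe sets the log2 ratio of Tapbp, the highest of the 7 at 0.24, was 0.05.

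The transporter subunits showed little. Tap1 had 241 in the PS cDKO and 236 in the control, just above the floor and 1.02-fold higher, and a second Tap1 probe set was below it. Tap2 was below the floor, at 150 in the PS cDKO and 113 in the control.

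The classical heavy chains H2-K1 and H2-D1 gave gene values of 1.09-fold and 1.05-fold, and their probe sets disagreed in sign. For H2-K1 the intensities were 854, 457 and 247 in the PS cDKO and, in the same order, 704, 410 and 260 in the control, with log2 ratios of 0.28, 0.15 and -0.08. The lowest of them was the only H2-K1 probe set without a suffix. For H2-D1 the probe sets above the floor had 852 and 342 in the PS cDKO and 739 and 359 in the control, with log2 ratios of 0.21 and -0.07. In both genes the brighter probe set had the higher ratio.

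H2-M3, a nonclassical chain that presents formylated peptides, had 435 in the PS cDKO and 397 in the control, 1.10-fold higher, and a further probe set was at least 1.26-fold higher, with 292 in the PS cDKO and 211 in the control. H2-Q10, a secreted chain made mainly by liver, had 636 in the PS cDKO and 612 in the control, 1.04-fold higher, in a suffixed probe set. Markers of liver, listed as a check, summed to 6134 in the PS cDKO and 5985 in the control. Of the 9 class I chain probe sets 7 were suffixed, so the levels of single heavy chains are uncertain and may be shared between them. H2-Q7, H2-T10 and H2-T23 occurred only on probe sets annotated to several genes, and H2-L on none. Of 7 probe sets annotated to several class I genes, 2 lay above the floor on both arrays, at 1614 and 678 in the PS cDKO and 1564 and 551 in the control, with log2 ratios of 0.05 and 0.30.

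The signal of a gene is a measured property that moves with the ratio on these arrays. Among all genes measured on both arrays, 56.5% of those with a signal under 400 were higher in the PS cDKO, 51.9% of those from 400 to 800 and 43.6% of those above 800. The members were dimmer genes for the most part, with 11 under 400, of which 9 were higher, 5 from 400 to 800, of which 4 were higher, and 4 above 800, of which 3 were higher. Their median log2 ratios in the 3 ranges were 0.24, 0.07 and 0.14, against 0.03, 0.01 and -0.03 for all genes. The members higher by 25% or more, Gbp2, Irf9 and Usp18, were all in the dimmest range, where 10.7% of all genes were. After a lowess fit that removed the trend with signal, 16 of 22 members, the 2 bounded genes included, were higher, against 50.3% of all genes under the same fit. The member median was then 0.13 and that of all genes 0.0029. Under that fit 2 members, Gbp2 and Irf1, were higher by 25% or more, against 7.32% of all genes. Irf9 and Usp18 were then 1.248-fold and 1.236-fold higher and no longer reached that size.

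**Figure D3:**
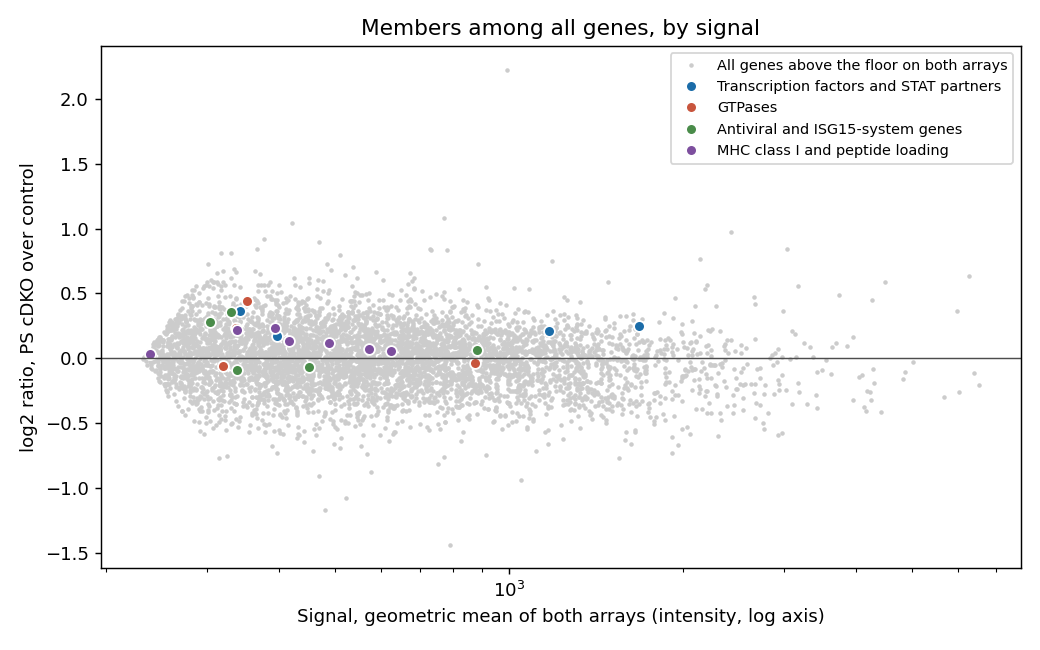
Log2 ratio (PS cDKO over control) against signal (geometric mean of both arrays, log axis) for all 5414 genes above the floor on both arrays in grey, with the 20 members coloured by class. The members sit within the cloud, 16 of them above 0 and 11 at a signal under 400.

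Further genes of the interferon and class I pathways, in 5 lists chosen by function, gave no uniform direction. Of 10 interferon genes with a probe set, 8 were measured and the rest lay below the floor. All 8 were higher, against 51.9% of all measured genes, around a median log2 ratio of 0.14. Of the 8, 1 was higher by 25% or more, against 8.05% of all measured genes. Ifna9 had 785 in the PS cDKO and 561 in the control, 1.40-fold higher. Ifna4, Ifna5 and Ifna2 were 1.14-fold, 1.12-fold and 1.11-fold higher. The α-interferon genes are near-identical copies whose probe sets may share targets, so these are not separate measurements. Signal above the floor does not by itself show expression in cortex. The liver marker Apoa1, for example, had 1634 in the PS cDKO and 1631 in the control.

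Of the receptors, kinases and feedback regulators, 6 of 10 were higher, against 51.9% of all measured genes, and the median log2 ratio was 0.02. Among the 6, Pias1 was a bound, and its direction follows from the filter. By 25% or more 1 was higher, and by 20% or more 3 were lower, against 8.05% and 8.36% of all measured genes. Socs3, an inducible inhibitor of JAK kinases, was 1.497-fold lower, with 514 in the PS cDKO and 770 in the control. Jak1, a kinase of all interferon receptors, was 1.30-fold lower, with 518 in the PS cDKO and 675 in the control. Ifngr2, a chain of the interferon-γ receptor, was 1.27-fold lower, with 543 in the PS cDKO and 692 in the control. Ptpn6, a phosphatase of blood and microglial cells, was 1.27-fold higher, with 323 in the PS cDKO and 254 in the control. The signalling genes thus differed from each other in direction.

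Of the nucleic acid sensors and their adaptors, 4 of 9 genes with a probe set were measured. Of these, 3 were higher, against 51.9% of all measured genes. Among the 3, Ikbke was a bound, with 261 in the PS cDKO and 196 in the control, and its direction follows from the filter. Tlr7, an endosomal sensor of single-stranded RNA, was 1.35-fold higher, with 1548 in the PS cDKO and 1143 in the control. Traf6 was 1.15-fold higher and the adaptor Myd88 1.10-fold lower. Of 19 other interferon-stimulated genes measured, 12 were higher, against 51.9% of all measured genes, and the median log2 ratio was 0.03. Among the lower genes Ifitm1 was a bound, and its direction follows from the filter. By 25% or more 1 was higher, and by 20% or more 1 was lower, against 8.05% and 8.36% of all measured genes. Ly6e, a membrane-anchored protein induced by interferon, was 1.55-fold lower, with 1278 in the PS cDKO and 1982 in the control.

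In the same list the nuclear body gene Sp100, the 1 gene higher by 25% or more, was a bound of at least 1.40-fold. Its mean intensities were 337 in the PS cDKO and 173 in the control, and its direction follows from the filter. Pml, also a nuclear body gene, was 1.24-fold higher. The exonuclease gene Isg20 was 1.22-fold and Gbp2b, a relative of Gbp2, 1.17-fold higher. In the list of the immunoproteasome and further class I genes, 10 were measured and the median log2 ratio was 0.0026. Of the 10, 5 were higher, 2 of them by 25% or more, against 51.9% and 8.05% of all measured genes. The chain genes H2-Q4, counted as higher, and H2-Q5, counted as lower, were bounds whose directions follow from the filter. Pdia3, a disulfide isomerase of the peptide-loading complex that also serves general protein folding, was 1.52-fold higher, with 376 in the PS cDKO and 247 in the control. Calr, the chaperone calreticulin of the same complex, was 1.23-fold lower, with 1411 in the PS cDKO and 1743 in the control. The chain genes H2-M2 and H2-K2 were 1.27-fold and 1.21-fold higher.

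**Figure D4:**
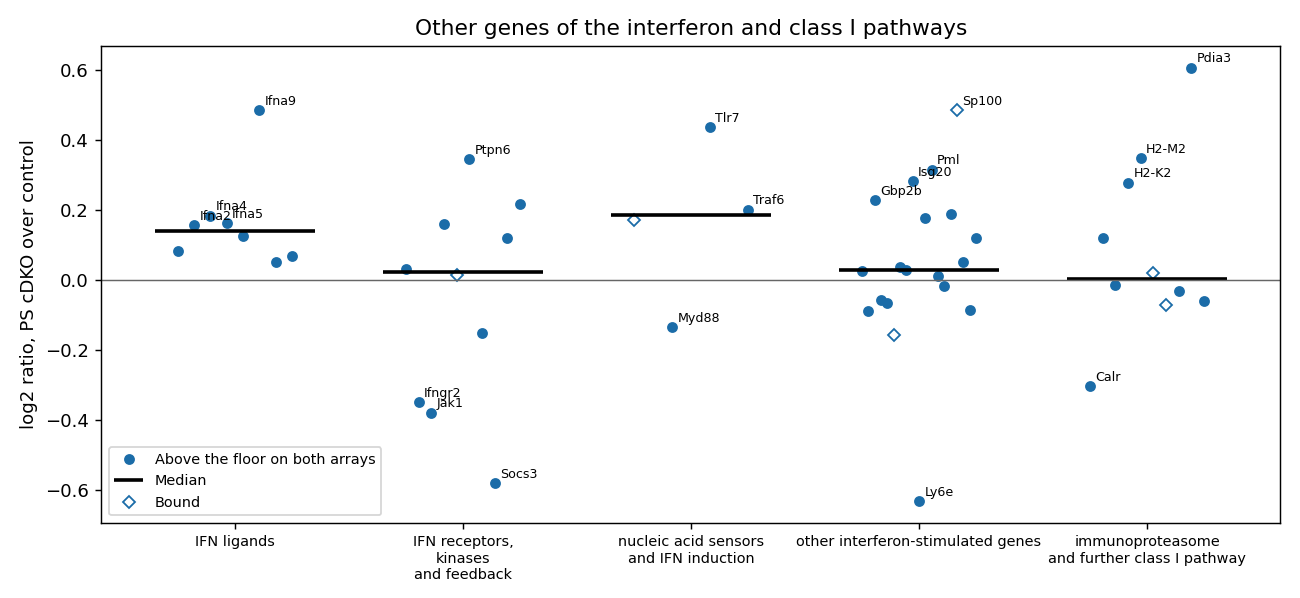
Log2 ratio (PS cDKO over control) of the measured genes in 5 further pathway lists (IFN, interferon), with open diamonds for bounds and bars for medians. All 8 interferon genes lie above 0, whereas Socs3, Jak1 and Ifngr2 among the signalling genes and Ly6e among the stimulated genes lie at -0.35 or lower.

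Cell type markers were read beside these values. Markers of excitatory cortical neurons were above the floor for 4 of 5 genes and of astrocytes for 5 of 5. Microglial and macrophage markers were higher along with most members. Of 11 measured, 11 were higher, against 51.9% of all measured genes, around a median log2 ratio of 0.31. Among them Adgre1 was a bound whose direction follows from the filter. Outside the 11, Aif1 and Fcer1g lay below the floor on both arrays. The summed signal of the list was 9438 in the PS cDKO and 6529 in the control. Marker sums here and below include probe sets under the floor. In that list the complement gene C1qa was 2.11-fold and the protease gene Ctss 1.79-fold higher. Astrocyte markers summed to 10357 in the PS cDKO and 7132 in the control, with Gfap at 2145 in the PS cDKO and 458 in the control, while Aldoc was 1.19-fold lower. In bulk cortex, more cells of a type and more RNA per cell cannot be told apart, and the part of either in the interferon and class I values was not tested.

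Markers of T and NK cells lay in both directions. Of 6 measured, 3 were higher, against 51.9% of all measured genes. The list summed to 4478 in the PS cDKO and 4493 in the control. Cd3e was 1.19-fold and Klrd1 1.13-fold higher, Cd4 was 1.12-fold and Gzmb 1.09-fold lower, and Cd2 was at least 1.44-fold lower, with its PS cDKO value just under the floor. The direction of Cd2 follows from the filter. Cd3d, Cd3g and Cd8a, named because they are T cell genes, were below the floor on both arrays, unlike Cd3e, a further CD3 gene. Of 13 listed genes with a probe set, 7 lay below the floor on both arrays. These values do not show whether T cells were present or absent. B and plasma cell markers summed to 4092 in the PS cDKO and 3677 in the control, and endothelial markers to 2860 in the PS cDKO and 2822 in the control. Dendritic cell and neutrophil markers summed to 6379 in the PS cDKO and 6298 in the control, those of red blood cells to 1953 in the PS cDKO and 2511 in the control, and those of choroid plexus to 2717 in the PS cDKO and 2994 in the control. In the choroid plexus list Ttr was 1.84-fold lower, whereas 2 of 3 measured genes were higher, against 51.9% of all measured genes. Neuronal lists had lower sums. For excitatory neurons these were 5007 in the PS cDKO and 6987 in the control, and 0 of 4 measured genes were higher. For inhibitory neurons the sums were 6706 in the PS cDKO and 8053 in the control, and 2 of 6 measured genes, Gad1 and Vip, were higher. The share of all measured genes that were higher was 51.9%. Oligodendrocyte markers summed to 8022 in the PS cDKO and 8977 in the control. The presenilin gene Psen2 was below the floor with 97.1 in the PS cDKO and 105 in the control and gave no check of the genotype.

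Promoter matches to the elements of the pathway were frequent among the members, both measured and unmeasured. RefSeq windows were found for 30 of the 37 genes and not for H2-L, H2-T10, Ifi204, Mx1, Mx2, Tap2 and Usp18. An ISRE match was present in 13 of the 30 and a GAS match in 9, against 3.44% and 8.30% of all 32851 windows in the table, although a gene with several windows counts once here if any of them matches. The 8 genes below the floor on both arrays that have a window, among them Ifit1, Ifit3 and Oas1g, all had a match to 1 or the other. Of the 4 with a window and no probe set of their own, 3 had a match and H2-Q7 had none. Of the 18 measured genes with a window, 8 had a match and 10 did not. Leaving out the bounds of Igtp and Nmi, 6 of 7 genes with a match were higher, with log2 ratios between -0.09 for Ifi35 and 0.45 for Gbp2 and a median of 0.22. Of 9 genes without a match 7 were higher, with log2 ratios between -0.06 for Lgals3bp and 0.36 for Irf9 and a median of 0.07. Of all genes measured on both arrays, 50.8% were higher. The ranges of the matched and unmatched genes overlap, and a difference between these small groups was not tested. H2-K1, H2-D1, Tap1 and Tapbp had no match in these windows either.

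For comparison with the members shown above, the window of Ifit1, at chr19:34640639-34640938 (plus strand), holds 2 ISRE matches in a gene whose signal stayed below the floor on both arrays, and that of Irf8, at chr8:120736108-120736407 (plus strand), holds 2 GAS matches in a gene 1.13-fold higher.
Ifit1 promoter: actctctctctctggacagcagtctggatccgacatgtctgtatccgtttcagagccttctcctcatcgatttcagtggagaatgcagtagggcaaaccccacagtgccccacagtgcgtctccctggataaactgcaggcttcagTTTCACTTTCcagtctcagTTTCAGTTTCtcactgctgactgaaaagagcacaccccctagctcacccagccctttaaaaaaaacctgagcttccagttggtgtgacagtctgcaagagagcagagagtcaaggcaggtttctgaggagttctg
Irf8 promoter: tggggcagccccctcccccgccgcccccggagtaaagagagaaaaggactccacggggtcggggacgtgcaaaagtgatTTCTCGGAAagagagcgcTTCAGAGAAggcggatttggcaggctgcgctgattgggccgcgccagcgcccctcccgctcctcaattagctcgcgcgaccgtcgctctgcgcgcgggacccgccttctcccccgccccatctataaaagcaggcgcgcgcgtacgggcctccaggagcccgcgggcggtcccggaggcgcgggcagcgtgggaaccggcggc
A match in these letters is a description of the window and not a measured binding site.

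**Figure D5:**
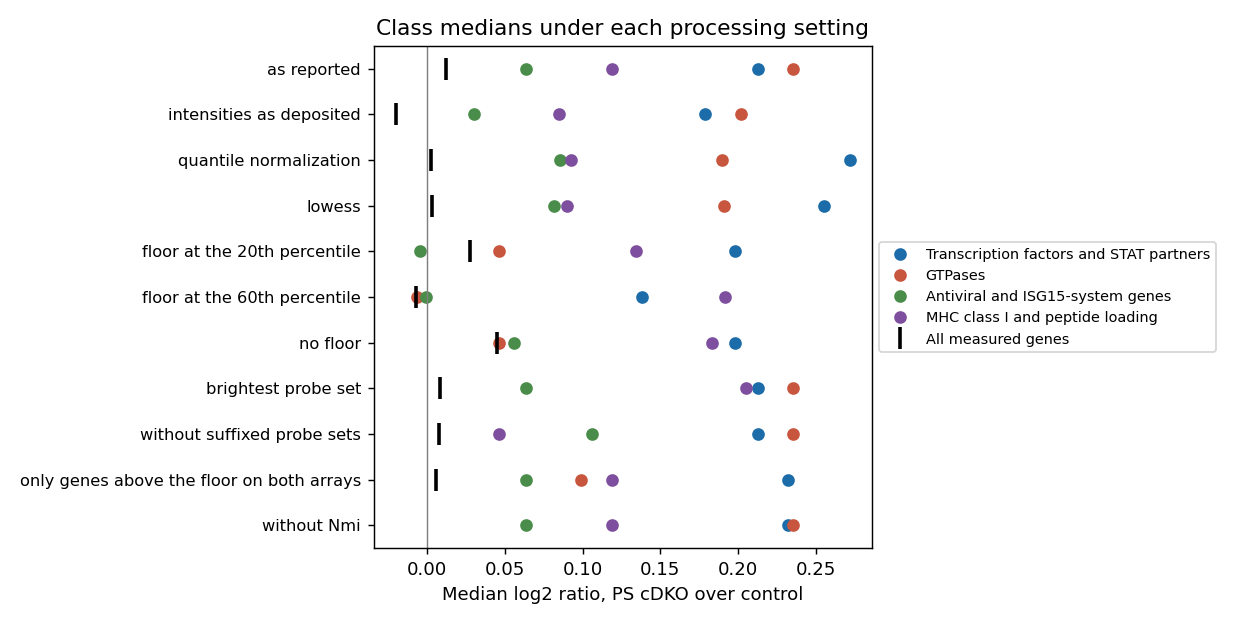
Median log2 ratio (PS cDKO over control) of each member class under each processing setting, with vertical ticks for all measured genes. The transcription factor class stays between 0.14 and 0.27 and the class I class between 0.05 and 0.21, while the GTPase and antiviral classes reach -0.0066 and -0.0045 under other floors.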

How the data were processed

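Mouse cortex RNA from 1 PS cDKO and 1 control array was analysed. The deposited table holds 1 linear array intensity for each of 12418 probe sets and each array. No label or header names the scanner, software or normalization. The authors' deposited intensities include negative values (18 in the PS cDKO, 13 in the control), so a subtraction preceded deposit.

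Probe sets were named by the platform annotation, which can be old: 10829 had 1 gene symbol, 396 several and 1193 none. The PS cDKO array was shifted by 0.034 on the log2 scale, which set the median ratio to 0 over probe sets above the median of both arrays. The floor was the 40th percentile. Gene values are means over the fully measured probe sets, otherwise over bounded ones. Genes were counted at 25% or more above or 20% or more below the control, with no test. The members, classes and lists were chosen with earlier results of these data known. Named genes were all members, the 4 largest absolute ratios of each pathway list, bounds past that size and 2 genes each of the microglial and T cell lists. Other marker genes were named after their values were seen. Names were checked against RefSeq (GRCm38.p6), where 8237 of 8251 genes matched. The gene calculation was tested on simulated data. Alternatives were the deposited scale, quantile normalization, a lowess fit with span 0.3, other floors (20th percentile, 60th percentile, none), the brightest probe set, no suffixed probe sets, no bounds and a 1.5-fold threshold. With 2 arrays, their number limits the precision. The calculations ran in Python 3.11.15 with pandas 2.3.3 and numpy 2.4.6, lowess in statsmodels 0.14.6, and plots in matplotlib 3.10.9.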

Additional observations from a re-analysis of the deposited data

How the results depend on the processing

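No paired analysis was possible because each genotype had 1 array, and no array could be left out. The number of members higher by 25% or more, 3 as reported, was 1 after quantile normalization, 5 of 28 with the floor lowered to the 20th percentile, 0 of 13 with it raised to the 60th, 8 of 31 with no floor and 0 at a 1.5-fold threshold. The share of all genes past that size was 7.38%, 11.5%, 5.52% and 16.1% under quantile normalization and the 3 floors in that order. The number was 2 with the intensities as deposited (6.35% of all genes) and 2 after lowess (7.32%). It was 4 with the brightest probe set (8.46%) and 4 of 19 without suffixed probe sets (8.29%). The number lower by 20% or more, 1 as reported, was 2 with the floor at the 20th percentile (8.17% of all genes), 3 with no floor (9.34%), and 0 when bounded genes were left out or without Nmi, an alternative chosen after seeing the data. With the floor at the 60th percentile 10 of 13 measured members were higher, against 48.5% of all genes, and the GTPase median was -0.0066. By construction, the floors change which members are measured, 13 at the 60th percentile and 31 with none, and leaving out bounds removes Nmi. For quantile normalization, lowess, the deposited scale and the choice of probe sets the cause was not tested. The median of all measured members stayed positive in every setting run, between 0.06 and 0.21, and that of all genes moved by less than 0.1. Ifi35, Ifi47, Lgals3bp, Mx2 and Nmi were lower in every setting that measured them. Irf1, Irf7, Irf8, Irf9, Gbp2, Igtp, Mx1, Isg15, Usp18, B2m, Tapbp, H2-D1, H2-M3 and H2-Q10 were higher in every such setting. Part of this constancy is by construction. For genes with 1 probe set, such as Usp18 and Irf9, lower floors and the choice of probe sets left the ratio unchanged. For Igtp and Nmi the direction follows from the filter wherever the ratio is a bound. Tap1 and H2-K1 changed sign as given above, and Ifi204 was lower with no floor, at -0.37. With no floor H2-D1 was at 0.39. Signal near the floor limited 9 members that gave no ratio.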
